A study of Mus musculus with 89 samples.

Results

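Gamma delta intraepithelial lymphocytes were taken from the single cells of the mouse jejunum by their transcripts. A well was called a lymphocyte when the UMIs (unique molecular identifiers, 1 per captured mRNA molecule) of Cd3g, Cd7, Ccl5, Gzma, Gzmb, Cd8a, Klrd1 and Tcrg-C1 summed to at least 3. It was called a gamma delta cell when it also held at least 1 UMI of Trdc, the constant region of the delta receptor chain, and none of Cd8b1, the beta chain of the CD8 coreceptor. By this rule 489 wells were gamma delta cells, out of 1681 lymphocytes and 5199 wells that passed the limits on quality. A well passed if it had between 200 and 7000 UMIs, between 150 and 1500 detected genes, and a mitochondrial share of no more than 40%. These 10 genes chose the cells, so their values are described below and not tested.

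The study dissociated the jejunum of C57BL/6 male mice on regular chow with EDTA and sequenced clumps of epithelial cells and single cells. Only the single cells are used here, from 4 mice that the labels give as 3 months old, except for 3 plates of mouse 2 labelled 4 months, which held no lymphocytes. There was no treatment, so every comparison is between cell groups. Those among lymphocytes use mice 2, 3 and 4 in both groups, and mouse 1 enters only as non-lymphocytes. Cells were sorted into 384-well plates and their 3' ends were sequenced by MARS-seq 2.0, which gives each well its own barcode. The study's methods describe a gate on Epcam without CD45, the surface marker of leukocytes, and a gate for tuft cells on Epcam and CD24 that left out the CD45 condition. The plate labels CD24 and onlyEpcam, which held nearly all of the lymphocytes, do not say whether CD45 was used.

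Gamma delta T cells carry a receptor made of a gamma and a delta chain in place of the alpha and beta chains of most T cells, and signal through the same CD3 proteins. In the small intestine they are abundant between the epithelial cells, where many carry CD8 as a pair of alpha chains and hold cytotoxic granules. Alpha beta T cells of the same layer carry CD8 either as alpha chains alone, the so-called natural cells, or with the beta chain, the induced cells.

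The genes that define the cells lie in receptor loci with near-identical copies, and the sequences are shown because they limit what the counts can say. Trdc is at chr14:54142851-54148868 on the plus strand of GRCm38. The gamma constant regions Tcrg-C1, Tcrg-C2, Tcrg-C3 and Tcrg-C4 lie on chromosome 13. The last 60 coding bases of each, stop codon included, are given 5′ to 3′ on the coding strand from the GENCODE annotation of GRCm38. Capitals mark bases of a gamma gene that differ from Tcrg-C1, counted position by position.
Trdc, chr14:54144259-54144318, plus strand: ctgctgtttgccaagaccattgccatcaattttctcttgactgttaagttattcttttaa
Tcrg-C1, chr13:19216559-19216618, plus strand: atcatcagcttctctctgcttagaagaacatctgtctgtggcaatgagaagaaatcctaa
Tcrg-C2, chr13:19305060-19305119, minus strand: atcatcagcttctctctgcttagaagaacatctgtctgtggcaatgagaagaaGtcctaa
Tcrg-C3, chr13:19263338-19263397, plus strand: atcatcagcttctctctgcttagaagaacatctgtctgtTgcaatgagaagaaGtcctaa
Tcrg-C4, chr13:19352284-19352343, plus strand: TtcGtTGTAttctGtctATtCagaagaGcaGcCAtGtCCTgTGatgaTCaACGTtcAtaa

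Tcrg-C2 differed from Tcrg-C1 at 1 of these 60 bases, Tcrg-C3 at 2 and Tcrg-C4 at 27. Over the 330 bases of the first coding exon, Tcrg-C1 shared 97.3% of bases with Tcrg-C2, 96.1% with Tcrg-C3 and 82.1% with Tcrg-C4. In the last 400 bases of the transcripts, 49.3% of the 40-base windows of Tcrg-C3 also occurred in Tcrg-C1 and 13.3% in Tcrg-C2, while none of Tcrg-C4 or Trdc occurred in another of these genes. Counts of Tcrg-C1, Tcrg-C2 and Tcrg-C3 are therefore uncertain against each other, and those of Trdc and Tcrg-C4 are not affected by these copies.

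Gamma delta cells were unevenly spread over mice and plates. Mouse 1 gave 1 cell, mouse 2 gave 266, mouse 3 gave 158 and mouse 4 gave 64, which was 0.123%, 14.8%, 10.3% and 6.04% of the wells kept (mean 7.82% ± 6.26, SD, n = 4). Among lymphocytes the shares were closer: 36.6% in mouse 2, 22.7% in mouse 3 and 25.1% in mouse 4 (mean 28.1% ± 7.46, SD, n = 3), with 95% exact binomial intervals of 33.1% to 40.3%, 19.6% to 26.0% and 19.9% to 30.9%. Mouse 2 lay above the other mice in both shares.

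The sort label on the plates went with the number of gamma delta cells within a mouse. In mouse 2, 266 of 1080 wells on the plates labelled CD24 were gamma delta cells (24.6%, exact interval 22.1% to 27.3%), against 0 of 573 on the plates labelled Epcam, where 3 counts would be 0.524% and the exact upper limit is 0.642%. In mouse 3 the plates labelled onlyEpcam gave 156 of 1260 (12.4%) and those labelled CD45Epcam 2 of 276 (0.725%). In mouse 4 the labels onlyEpcam and CD54Epcam gave 61 of 802 (7.61%) and 3 of 258 (1.16%). Of the 44 plates, 23 held at least 1 gamma delta cell, and on the 5 CD24 plates of mouse 2 the number per plate ran from 21 to 92. Sort label and mouse cannot be told apart for mouse 2, since its labels do not occur in mice 3 and 4. The intervals cover counting error only.

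**Figure D1:**
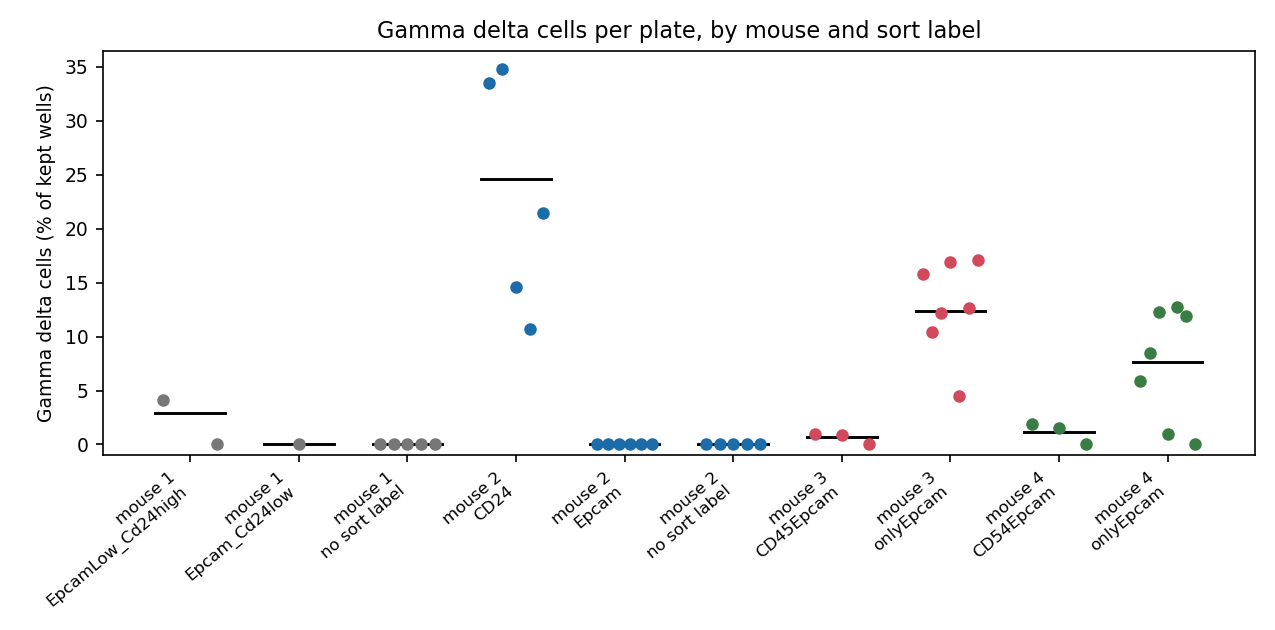
Each point is 1 plate, placed by mouse and sort label, and shows gamma delta cells as a percent of the wells kept on that plate; the horizontal lines are the pooled percent of each label. The pooled line is highest for CD24 in mouse 2 (24.6%), followed by onlyEpcam in mouse 3 (12.4%) and mouse 4 (7.61%), and single plates of these labels overlap.

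The rule held with room on the lymphocyte sum and with little room on Trdc. The median sum was 56 UMIs in gamma delta cells and 28 in the other lymphocytes, and only 4 gamma delta cells stood at the limit of 3. Just under it, 1 of the 214 wells with a sum of 2 had a Trdc UMI and no Cd8b1 UMI. Trdc itself was seen with exactly 1 UMI in 214 gamma delta cells (43.8%), with 2 in 135, with 3 in 74 and with 4 or more in 66, up to 9. A lymphocyte whose Trdc mRNA was not captured counts among the other lymphocytes, so that group holds gamma delta cells too. Only 4 lymphocytes held both Trdc and Cd8b1.

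The values of the rule's own genes are given as a description, since the choice of cells fixes their direction. Gzma, a granzyme of cytotoxic granules, stood at 24821, 25187 and 22163 CPM (UMIs of the gene scaled to a common total over the summed cells) in mice 2, 3 and 4, and at 49.5, 56.1 and 44.5 CPM in wells that were not lymphocytes. Ccl5, a chemokine of activated T cells, stood at 15253, 17152 and 17369 CPM and Gzmb at 5791, 4872 and 5143 CPM. Single cells held a median of 24 Gzma, 15 Ccl5, 4 Gzmb, 3 Cd7 and 2 Tcrg-C1 UMIs. Both granzymes were seen in 408 of the 489 cells (83.4%), and neither in 18 (3.68%). Cd8a had a UMI in 349 cells (71.4%) and Klrd1, which encodes the CD94 receptor of NK and T cells, in 239.

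The label was then set beside further markers in the same cells. A UMI of at least 1 of Cd3d, Cd3e and Cd3g was found in 440 cells (90.0%) and of at least 1 gamma constant region in 432 (88.3%), shares that include Cd3g and Tcrg-C1 of the rule. Ncr1, the defining receptor of NK cells, had no UMI in 489 cells, which allows a share of cells with a captured UMI of up to 0.613%, and says less of cells that express it, and Eomes, Foxp3, Cd79a and Ms4a1 had none either. Ncr1 and Eomes were also at 0 in the other lymphocytes, so their absence was not particular to gamma delta cells. Other genes of the same marker lists did have UMIs in gamma delta cells. These were 7 of 10 NK and innate lymphoid, 5 of 8 B and plasma cell and 3 of 6 helper T cell genes. Against the label, Trac, the constant region of the alpha chain, had a UMI in 125 cells (25.6%). At least 1 UMI of the 4 genes of the alpha beta receptor list was held by 72.9%, 53.8% and 65.6% of gamma delta cells in mice 2, 3 and 4. The other lymphocytes were similar, at 61.3%, 62.3% and 64.9%. The position of a cell between epithelial cells was not measured: that the cells are intraepithelial rests on the EDTA dissociation of the epithelium. The median depth of a gamma delta cell was 994 UMIs (1096.5, 824 and 864.5 in mice 2, 3 and 4) and 532 genes, with 9.01% mitochondrial UMIs. Other lymphocytes had 882 UMIs and non-lymphocytes, which could hold up to 2 UMIs of the lymphocyte sum, 2396 UMIs with 28.3% mitochondrial. Wells of different plates reuse the same 384 well barcodes by design and were kept apart by plate.

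Receptor and adaptor genes that the rule did not use were captured in some gamma delta cells and not in others, which at this depth does not show that the cells differed. The share with Trac was 28.9% in mouse 2, 22.8% in mouse 3 and 18.8% in mouse 4, and cells with Trac were deeper (median 1305 against 922 UMIs). Of these 125 cells, 81 held 2 or more Trdc UMIs. When each cell was thinned to 500 UMIs, which left 437 of the 489, Trac was seen in 14.6% ± 3.44 (SD, n = 3 mice) of gamma delta cells, in 38.9% ± 35.8 of lymphocytes with Cd8b1 and in 0.590% ± 0.522 of non-lymphocytes. Trbc1 and Trbc2, the beta chain constant regions, were seen in 22.8% ± 6.16 and 33.7% ± 13.5 of thinned gamma delta cells, and in 0.419% ± 0.434 and 0.827% ± 0.832 of non-lymphocytes. These shares in gamma delta cells were above those of non-lymphocytes, which should lack the transcripts.

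Fcer1g and Tyrobp, adaptors that carry the signal of NK receptors and Fc receptors, were likewise captured in a fraction of the cells. Fcer1g had a UMI in 293 cells (59.9%), Tyrobp in 193 (39.5%) and both in 140 (28.6%). Over mice, Fcer1g ran from 55.1% to 62.5% of cells and Tyrobp from 26.6% to 47.0%. Cells with an Fcer1g UMI were deeper than those without (median 1088 against 803 UMIs). In cells thinned to 500 UMIs the share was 40.8% ± 3.04 for Fcer1g and 23.1% ± 4.82 for Tyrobp (SD, n = 3 mice), against 1.36% ± 0.0766 and 2.29% ± 0.663 in non-lymphocytes.

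**Figure D2:**
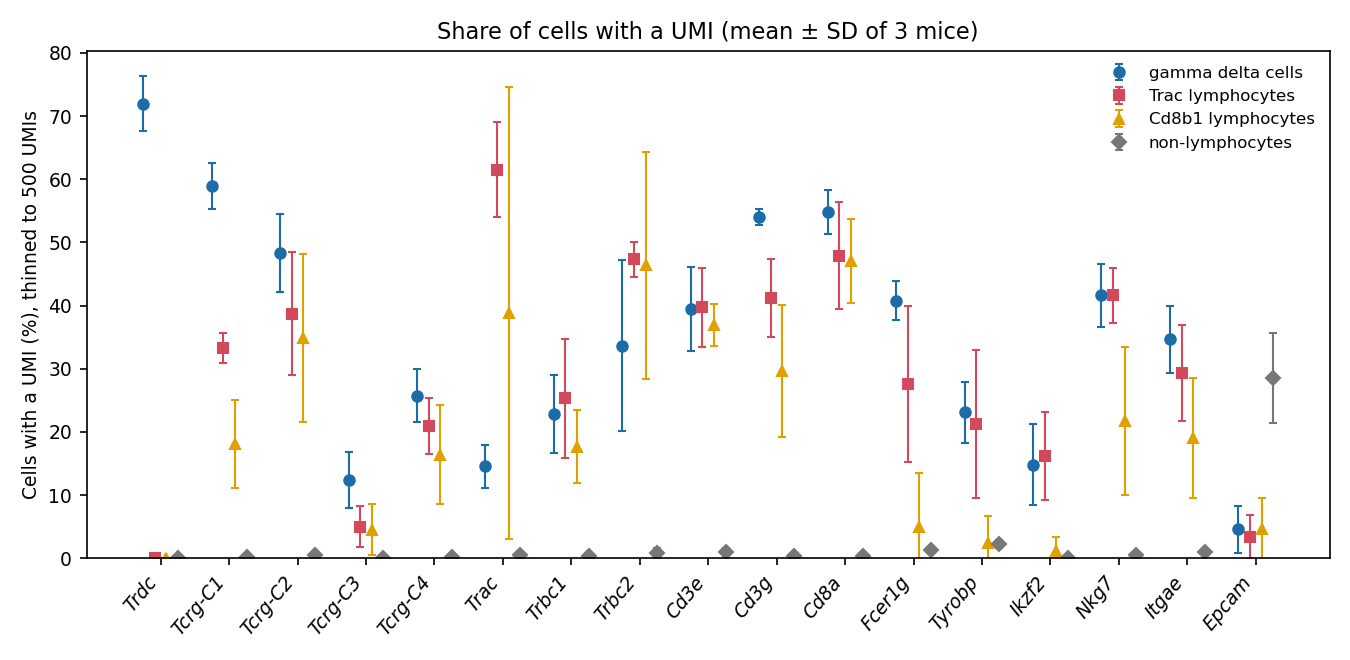
Points give the percent of cells with at least 1 UMI of each gene after thinning each cell to 500 UMIs, as the mean of 3 mice with SD bars, for gamma delta cells, lymphocytes with Trac and no Trdc, lymphocytes with Cd8b1 and no Trdc, and non-lymphocytes. Fcer1g was seen in 40.8% of gamma delta cells, 27.6% of Trac lymphocytes and 4.94% of Cd8b1 lymphocytes; Trdc, Trac and Tcrg-C1 took part in choosing groups.

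Variable segments were rarely counted, as reads came from the 3′ end. Tcrg-V7 had 13 UMIs in gamma delta cells, in 11 cells, 3 UMIs in the other lymphocytes, which were more numerous, and none in Trac lymphocytes or non-lymphocytes. Trgv2 had 75 UMIs in gamma delta cells and 1 in non-lymphocytes, but it also had 67 UMIs in lymphocytes with Trac and no Trdc. Its level was 103, 164 and 243 CPM in gamma delta cells and 196, 150 and 56.5 CPM in Trac lymphocytes of mice 2, 3 and 4, so the groups overlapped.

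The first comparison asked what set gamma delta cells apart from the other lymphocytes of the same mice, 460, 539 and 191 in mice 2, 3 and 4. UMIs were summed per mouse and group, and 3384 genes outside the rule were tested with the quasi-likelihood test of edgeR in mice 2 to 4, with Benjamini-Hochberg adjustment at 0.05. Without a term for the mouse, 3 genes passed (0.0887% of those tested) and all were lower in gamma delta cells. With the mouse as a block, since the groups come from the same animals, 239 genes passed (7.06%), 62 higher (1.83%) and 177 lower (5.23%). At an unadjusted p under 0.05 the fit without the block counted 329 genes (9.72%), and DESeq2 called 33 (0.975%), 1 gene higher (0.0296%) and 32 lower (0.946%). Leaving out mouse 2, 3 or 4 gave 7, 1 and 0 genes without the block. With 3 mice a p-value without the block measures only the spread between these animals. In the blocked fit it measures the spread of the differences within them, with information shared across genes. No T cell gene passed in the fit without the block, so every T cell change given for this comparison is a call of the blocked fit. Where a called gene is printed here without its adjusted p, that p was 0.0385 or lower.

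Fitted changes are relative to TMM scaling, which put the median of the 3384 genes at -0.01 on the log2 scale. Scaling by total UMIs alone moved that median to 0.25, a shift of 0.26, and gave 190 genes higher and 126 lower in place of 62 and 177. All 239 genes called with TMM kept their sign.

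Gamma chain constant regions were higher in gamma delta cells, Tcrg-C3 by the most. Tcrg-C3 stood at 300, 210 and 319 CPM in gamma delta cells of mice 2, 3 and 4 and at 92.8, 61.8 and 83.5 CPM in the other lymphocytes. The log2 change was 1.50 ± 0.21 (SE, blocked adjusted p = 2.38e-10, 0.0586 without the block). Tcrg-C4, the copy that shares no window with the others, stood at 473, 589 and 683 against 283, 220 and 317 CPM (0.78 ± 0.13, adjusted p = 2.88e-07). Tcrg-C2 rose by 0.61 ± 0.11 (adjusted p = 3.48e-06). All 3 tested genes of the gamma delta receptor list were thus called higher, with a median of 0.78 against -0.01 over all tested genes. Tcrg-C1 belonged to the rule and was 1934, 1794 and 1896 against 631, 483 and 589 CPM.

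The alpha beta receptor genes differed little. Trac was 385, 327 and 228 CPM in gamma delta cells and 370, 404 and 400 CPM in the other lymphocytes, higher in mouse 2 and lower in mice 3 and 4, and the blocked fit called it lower (-0.45 ± 0.14, adjusted p = 0.0243). Scaled by total UMIs the change was -0.20 and not called. Trbc2 (-0.33 ± 0.12, adjusted p = 0.071) and Trbc1 (0.01 ± 0.13, adjusted p = 0.988) did not pass. Of the CD3 chains that every T cell receptor needs, Cd3e stood at 1207, 917 and 1016 against 596, 480 and 620 CPM and rose by 0.66 ± 0.11 (adjusted p = 4.08e-07). Cd3d rose by 0.62 ± 0.13 (adjusted p = 8.61e-05), and Cd247 was 0.38 ± 0.33 (adjusted p = 0.703).

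NK receptors and their adaptors rose in 4 of 6 tested genes. Fcer1g stood at 1000, 923 and 1214 CPM against 569, 295 and 580 CPM (0.86 ± 0.11, adjusted p = 4.42e-12). Klrb1a rose by 1.27 ± 0.34 (adjusted p = 0.00366) and Cd244, a receptor for CD48, by 0.77 ± 0.22 (adjusted p = 0.00891). Tyrobp was called higher (0.38 ± 0.13, adjusted p = 0.0356) although mouse 4 had 455 CPM in gamma delta cells and 528 CPM in the others. Hcst, which encodes the adaptor DAP10, and Cd160, a receptor for HVEM, did not pass, at 0.48 ± 0.19 and -0.09 ± 0.21. Cytotoxic granule genes rose in 4 of 7: Fasl by 0.93 ± 0.29, Ctsw (cathepsin W) by 0.79 ± 0.14, Cst7 (cystatin F) by 0.67 ± 0.18 and Nkg7 by 0.58 ± 0.12. Nkg7 stood at 1164, 1172 and 1138 CPM against 654, 599 and 695 CPM. Median changes were 0.63 in the NK list and 0.67 in the granule list.

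Of 7 tested coreceptor and surface genes, Cd27 (1.04) and Ptprcap (0.58) rose and Thy1 was called lower, with a median of 0.21 over the 7. Thy1, which encodes CD90, stood at 9.10, 32.7 and 15.2 CPM against 60.3, 88.7 and 52.8 CPM. It passed the filter on low counts only through the other lymphocytes, where it is high, so it is given without a fold. Cd5, Cd4 and Cd2 were too rare to be tested, with 2, 1 and 1 UMIs in the 489 gamma delta cells and 64, 43 and 12 UMIs in the 1192 other lymphocytes. Lymphocytes with Cd8b1 held 10 Cd5 and 26 Thy1 UMIs in 77 cells. In thinned cells Thy1 was seen in 1.74% ± 1.30 of gamma delta cells, 9.12% ± 2.55 of Cd8b1 lymphocytes and 0.464% ± 0.405 of non-lymphocytes. Cd28, the costimulatory receptor of conventional T cells, had no UMI in gamma delta cells and none in Cd8b1 lymphocytes.

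Of 19 signalling genes 3 rose, among them Zap70, the kinase that binds the CD3 chains (0.75 ± 0.21, adjusted p = 0.00884). Lag3 (1.00 ± 0.25), Tnfrsf9 (1.11 ± 0.36) and Cd96 (0.64 ± 0.16) rose out of 7 inhibitory and costimulatory receptors. Itgae, the integrin chain that binds E-cadherin of epithelial cells, stood at 803, 727 and 895 against 427, 425 and 488 CPM (0.59 ± 0.12, adjusted p = 2.28e-05), and Gpr55 rose by 0.63 ± 0.19. The other 10 of 12 tested genes of residence and homing did not pass, among them Ccr9, the receptor that brings T cells to the small intestine (170, 164 and 91.0 against 119, 139 and 96.7 CPM) and Itgb7 (173, 164 and 167 against 136, 135 and 96.7 CPM). Il2rb, the chain shared by the receptors of IL-2 and IL-15, rose by 0.77 ± 0.20, 1 of 5 cytokine receptors. Ccl3 rose by 1.04 ± 0.33, 1 of 5 chemokine and cytokine genes.

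Transcription factors were called in 3 of 16. Maf was called lower at 9.10, 26.2 and 0 CPM against 38.7, 45.9 and 119 CPM, on 7 UMIs in gamma delta cells. Like Thy1, it passed the filter on low counts only through the other lymphocytes, so it is given without a fold. Ets1 and Ikzf3 rose by 0.55 ± 0.14 and 0.62 ± 0.19. Tbx21, which encodes T-bet, was 42.4, 39.3 and 30.3 CPM against 10.8, 33.3 and 44 CPM and did not pass, and neither did Id2 (0.38 ± 0.14, adjusted p = 0.0612) or Ikzf2 (0.48 ± 0.17, adjusted p = 0.0728). Sox13 and Zbtb16, factors of other gamma delta lineages, had no UMI in gamma delta cells, and none in Cd8b1 or Trac lymphocytes. Of 19 immediate early genes, Rgs1 rose by 0.41 ± 0.12 and Fos was called lower. Fos stood at 24.3, 45.8 and 30.3 against 99.0, 122 and 141 CPM, and it also passed the filter through the other lymphocytes. No gene of the heat shock (8 tested), MHC class I (11) or cell cycle (4) lists passed in the blocked fit. Outside the lists, Elk3 (1.36 ± 0.34), Rab19 (1.34 ± 0.42) and Sh2b1 (1.33 ± 0.43) were among the 5 largest rises.

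**Figure D3:**
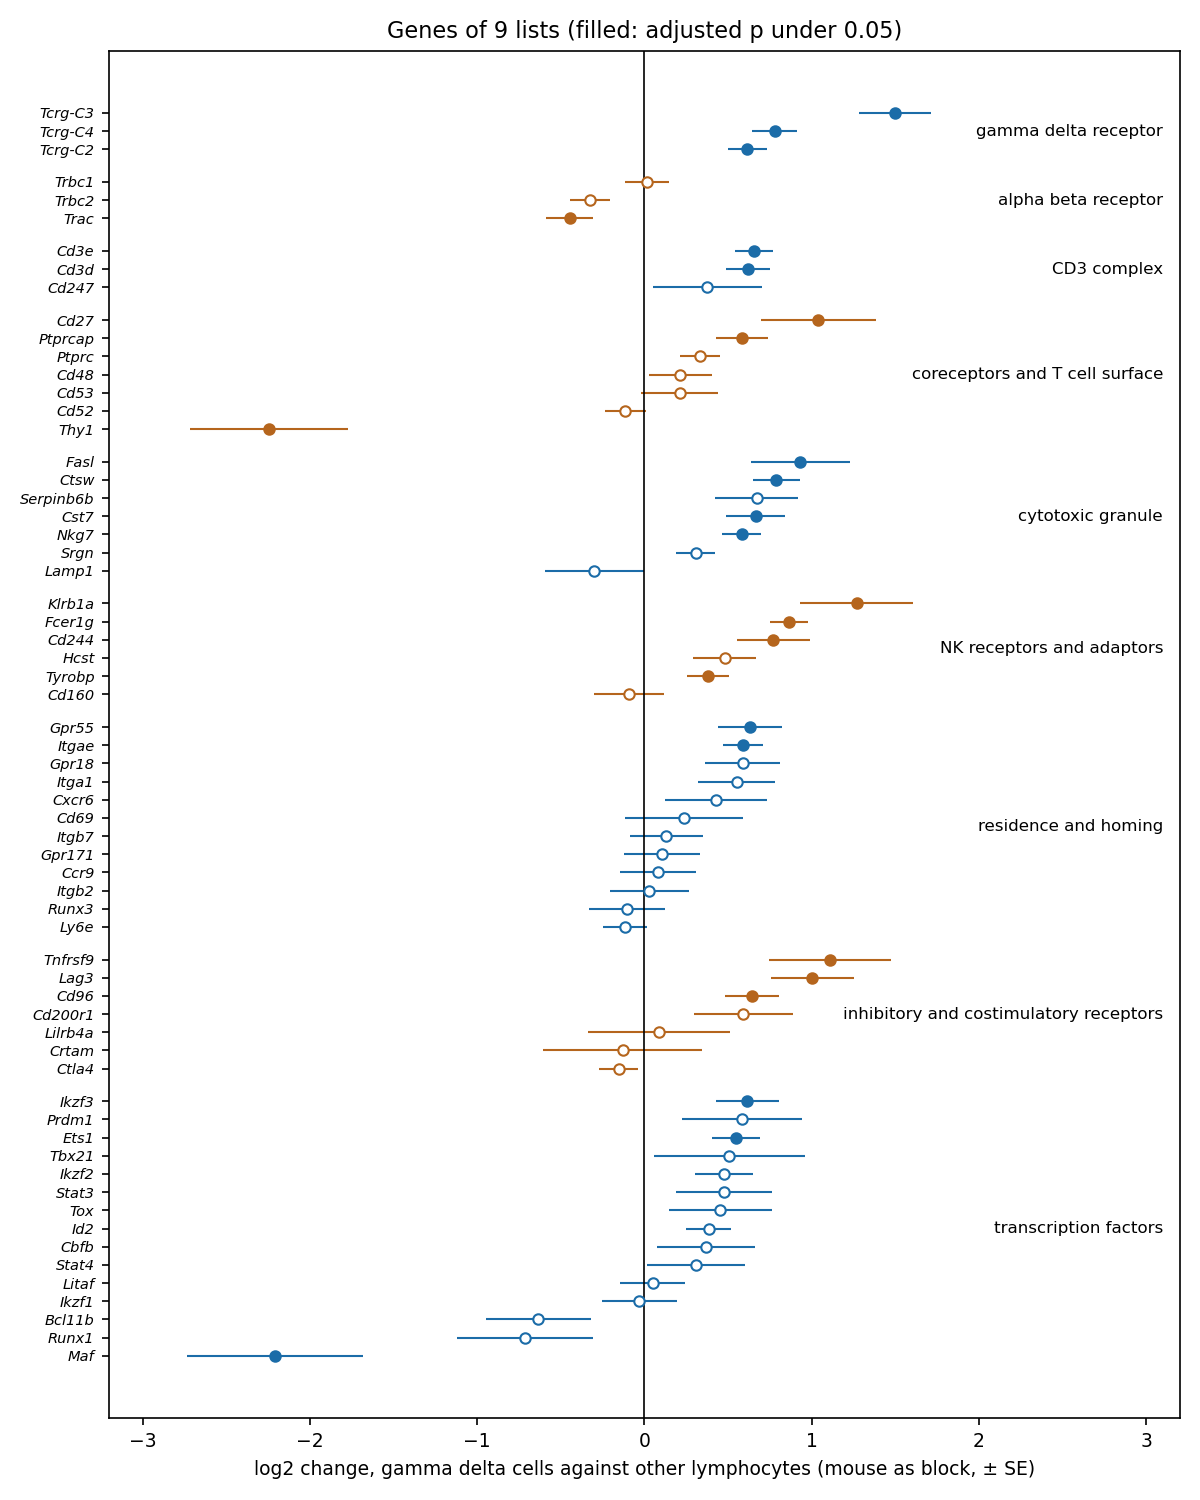
Log2 changes of single genes in gamma delta cells against other lymphocytes, with the mouse as a block and bars of 1 SE, grouped by list; filled points passed an adjusted p of 0.05. Gamma constant regions and CD3 chains lie to the right of 0, as do the granule genes except Lamp1 and the NK receptor genes except Cd160. Thy1 and Maf, farthest to the left, passed the filter on low counts only through the other lymphocytes, so their place is no result.

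Enterocyte markers were lower in gamma delta cells. Fabp1, a fatty acid binding protein of enterocytes, stood at 133, 183 and 75.8 CPM against 594, 577 and 374 CPM (-2.19 ± 0.29, adjusted p = 0.034 without the block), and Lgals4 and Atp1b1 were the other 2 genes called without it. In the blocked fit all 13 tested enterocyte markers were lower (median -2.23) and 7 of 8 epithelial markers (median -1.81). Summed enterocyte markers ran from 518 to 3626 CPM in gamma delta cells, from 1881 to 9555 CPM in the other lymphocytes and from 15064 to 28297 CPM in non-lymphocytes. Jchain and Igha, transcripts of plasma cells, were lower by -3.16 ± 0.16 and -2.80 ± 0.17, and the goblet gene Tff3 and the hormone gene Gip by -3.31 ± 0.20 and -3.46 ± 0.22, each the only 1 of 8 markers of its list that could be tested. In mouse 4 the summed goblet markers were 91.0 against 123 CPM and the enteroendocrine markers 15.2 against 17.6 CPM. Gip was 1176 CPM in gamma delta cells of mouse 2 and 11732 CPM in its other lymphocytes, against 6.55 to 39.6 CPM in mice 3 and 4.

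The rise of T cell genes moved together with this difference in other transcripts, whose part in it was not tested. Of the 177 genes called lower with the block, 162 were also called lower against non-lymphocytes, Maf and Fos among them. Of the 61 higher genes tested there, 57 were also called higher. Over all genes tested against non-lymphocytes, 21.5% were lower and 10.8% higher. Wells with at least 5 UMIs of 85 markers of other cell types made up 60.3% of gamma delta cells and 54.8% of other lymphocytes. Without them, 875 genes could be tested with the block and 1 passed, Fcer1g, which was higher by 0.93 (adjusted p = 0.041). Cd3e was then 0.19, Nkg7 0.26 and Itgae 0.17, none of which passed. With a lymphocyte sum of at least 5 in every lymphocyte, 9 genes were higher and 26 lower in the blocked fit.

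The second comparison took as reference the 77 lymphocytes with Cd8b1 and no Trdc, 29, 37 and 11 in mice 2, 3 and 4. The CD8 beta chain was taken as a mark of alpha beta T cells. The alpha beta receptor list summed to 2751 and 3457 CPM in mice 3 and 4, against 1179 and 1729 CPM in gamma delta cells. In mouse 2 it was lower, at 1237 against 1743 CPM. Only 655 genes could be tested in these small sums. Fcer1g and Ikzf2 passed without the block (0.305% of genes tested), both higher in gamma delta cells, and 12 higher and 2 lower genes passed with it (2.14%). DESeq2 called none, with 24 genes at an unadjusted p under 0.05 (3.66%), against 69 in edgeR without the block (10.5%). Without mouse 3 or without mouse 4 no gene passed.

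Genes with few UMIs in Cd8b1 lymphocytes, Fcer1g, Ikzf2 and Tcrg-C3 among them, passed the filter on low counts through the gamma delta sums, where they are high. Xcl1, high in Cd8b1 lymphocytes of mouse 3, did not pass it. The balance of higher to lower calls is therefore no result, and the genes with few UMIs are given by their levels and UMIs, without a fold. Fcer1g stood at 1000, 923 and 1214 CPM in gamma delta cells, and at 252, 0 and 0 CPM in Cd8b1 lymphocytes, where all 11 UMIs came from mouse 2, against 551 UMIs in gamma delta cells. In thinned cells 40.8% ± 3.04 of gamma delta cells and 4.94% ± 8.55 of Cd8b1 lymphocytes held it. Tyrobp was 719, 602 and 455 CPM against 458, 0 and 0 CPM and did not pass (adjusted p = 0.068 with the block). Ikzf2, which encodes the transcription factor Helios, stood at 264, 295 and 364 CPM against 22.9, 62.1 and 0 CPM, with 156 and 4 UMIs in all.

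The blocked fit called 12 further genes, while none of the 10 tested genes of the T cell signalling list passed. Tcrg-C3 stood at 300, 210 and 319 against 68.7, 62.1 and 0 CPM, with 152 and 6 UMIs in all. Serpina3g, a serine protease inhibitor, had 118 UMIs in gamma delta cells and 3 in Cd8b1 lymphocytes. Chn2, which encodes a GTPase activator for Rac, had 129 and 4 UMIs, Cd200r2 131 and 5, and Rgs2, a regulator of G protein signalling, 130 and 5. Efhd2 (1.38 ± 0.34, adjusted p = 0.0371), Car2 (1.86 ± 0.44), AW112010 (0.77 ± 0.18), Malat1 (0.58 ± 0.14) and Igha (0.89 ± 0.20) were also higher, at an adjusted p of 0.0282 for the last 4. Ccl4, a chemokine of activated T cells, was lower at 136, 236 and 212 against 412, 1138 and 225 CPM (-1.67 ± 0.33, adjusted p = 0.0223), as was Cd74, the invariant chain of MHC class II (-1.47 ± 0.34). Scaled by total UMIs alone, none of the 14 passed, with the sign of all 14 kept. Without wells with 5 or more UMIs of other cell types, none of 345 genes passed with the block, and 18 had an unadjusted p under 0.05.

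Several T cell genes did not pass against the Cd8b1 lymphocytes. Trac was 385, 327 and 228 against 229, 662 and 977 CPM and Trbc2 852, 517 and 834 against 802, 1220 and 1879 CPM. Cd3e was higher in each mouse, 1207, 917 and 1016 against 664, 745 and 827 CPM, at a blocked adjusted p of 0.208. Cd160 was lower in each, 182, 170 and 106 against 229, 228 and 376 CPM (adjusted p = 0.685). Xcl1 was 164, 19.6 and 60.7 CPM against 45.8, 1799 and 150 CPM and was not tested, as it did not pass the filter on low counts. Enterocyte markers summed to 710 to 3682 CPM in Cd8b1 lymphocytes and to 518 to 3626 CPM in gamma delta cells.

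The third comparison, added after the first results were seen, set gamma delta cells against 346 lymphocytes with a Trac UMI and no Trdc UMI, with median depth 1051 UMIs. This group may also hold cells with Cd8b1, and it is contained in the other lymphocytes of the first comparison. Enterocyte markers summed to 502 to 2952 CPM there and to 518 to 3626 CPM in gamma delta cells. Of 2198 genes, none passed edgeR without the block, with 68 at an unadjusted p under 0.05 (3.09%), and DESeq2 called 1, Hist1h2an, lower (0.0455%). With the block 12 passed (0.546%), 3 higher and 9 lower.

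Of those 12 calls, 3 were Tcrg-C3, Fcer1g and Trbc2. They were 1 of 3 tested genes of the gamma delta receptor list, 1 of 6 of the NK list and 1 of 2 of the alpha beta receptor list. Tcrg-C3 was 300, 210 and 319 against 104, 83.4 and 70.6 CPM (1.54 ± 0.27, adjusted p = 0.00187). Fcer1g was 1000, 923 and 1214 against 878, 306 and 720 CPM (0.69 ± 0.16, adjusted p = 0.0299), and without wells with 5 or more UMIs of other cell types it was the only gene of 524 to pass, at 1.54. Trbc2 was lower, at 852, 517 and 834 against 1304, 1257 and 1328 CPM (-0.86 ± 0.12, adjusted p = 8.58e-05). The values of gamma delta cells and Trac lymphocytes did not overlap for any of these 3 genes.

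Of the genes called higher against all other lymphocytes, Cd3e, Nkg7, Itgae, Tcrg-C2 and Tcrg-C4 (0.35 ± 0.17, adjusted p = 0.856) did not pass against Trac lymphocytes, where 3 genes in all were called higher. Ikzf2 did not pass here either. Cd3e was 0.15 ± 0.11, Nkg7 0.21 ± 0.11, Itgae 0.27 ± 0.12, Tcrg-C2 0.19 ± 0.11 and Ikzf2 0.13 ± 0.19 on the log2 scale, and the lowest blocked adjusted p among them was 0.764. Ikzf2 stood at 264, 295 and 364 CPM in gamma delta cells and at 245, 234 and 367 CPM in Trac lymphocytes, and these values overlapped. Among the 9 lower genes, Hist1h2an, a histone gene, was 60.6, 52.4 and 137 against 158, 300 and 565 CPM (-1.94 ± 0.28, adjusted p = 0.000142), and Hist1h2ak (-1.77 ± 0.32) and Hist1h2ap (-1.55 ± 0.28) were also lower. None of the 4 tested genes of the cell cycle list passed. These histone genes are near copies of each other, so their counts are uncertain against each other. Mki67, a marker of dividing cells, was seen in 1.14% ± 0.996 of thinned gamma delta cells and 2.61% ± 1.26 of Trac lymphocytes. Car2 was the third gene called higher (1.02 ± 0.22), and Gip was called lower (-2.38 ± 0.15).

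**Figure D4:**
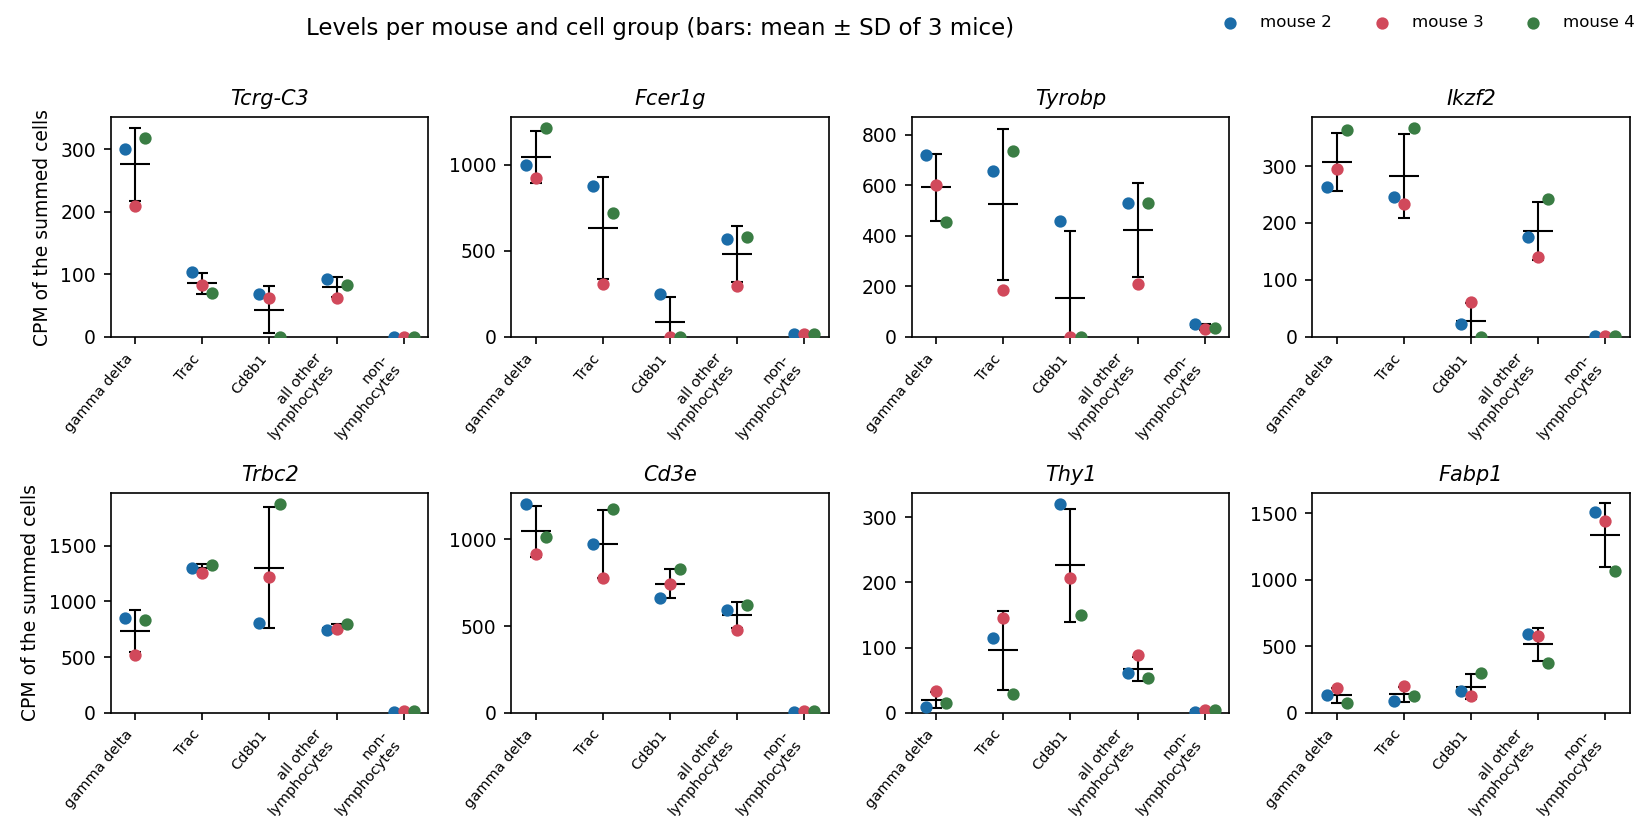
CPM of the summed cells of mice 2, 3 and 4 (points) with mean and SD of the 3 mice (bars) for 8 genes in 5 cell groups; the y axes start at 0. Tcrg-C3 and Fcer1g are highest in gamma delta cells, Trbc2 is above them in Trac lymphocytes, Thy1 is highest in Cd8b1 lymphocytes, and Fabp1 is highest in non-lymphocytes.

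Against the 3518 wells that were not lymphocytes, 3125 of 9681 genes passed (32.3%), 1046 higher and 2079 lower. Without mouse 2 the count fell to 1848. The median gene lay at -0.18, and at -0.32 with DESeq2 size factors, and changes are to be read relative to that shift. Over all genes 10.8% were higher and 21.5% lower. Among the T cell lists all 3 tested genes of the gamma delta receptor list, all 3 tested genes of the alpha beta receptor list, all 3 tested CD3 genes, 6 of 7 coreceptor and surface genes, all 8 NK receptor genes, 10 of 11 granule genes, 16 of 19 signalling genes and 13 of 16 genes of residence and homing were higher. Inhibitory and costimulatory receptors were higher in 7 of 10, chemokines and cytokines in 5 of 7 with Areg lower, and cytokine receptors in 4 of 10. These counts include genes such as Tcrg-C3, Prf1 and Gzmk, which passed the filter on low counts only through the gamma delta sums. The counts by list are therefore no result by themselves. Cd3e was 1207, 917 and 1016 CPM against 6.08, 13.3 and 11.4 CPM (5.81 ± 0.73, adjusted p = 8.31e-05), Fcer1g was 4.68 ± 0.39 and Itgae 4.84 ± 0.46. Il2rb (7.29 ± 0.51), Nkg7 (6.55 ± 0.72) and Ptprc, which encodes CD45 (2.99 ± 0.41), followed. Prf1 and Gzmk, a perforin and a granzyme, were sparse in gamma delta cells, with 15 and 20 UMIs, and had none in non-lymphocytes.

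Several genes were almost unseen in 1 of the groups, and their UMIs are given without a fold or an order. Tcrg-C3 had 152 UMIs against 1, Trgv2 75 against 1, Capn3 41 against 0, Mcam 27 against 0 and Mei1 57 against 1. Treh, the brush border trehalase, Ido1, an enzyme of tryptophan breakdown, Upp1, Sec14l2 and Baiap2l1 had no UMI in gamma delta cells and had 747, 752, 446, 477 and 408 UMIs in non-lymphocytes. All 16 enterocyte and all 8 goblet markers were lower in gamma delta cells, as were 8 of 9 epithelial markers. Of 25 transcription factors 13 were higher and 4 lower, and Id2, which cytotoxic and innate-like lymphocytes need, was 476, 498 and 455 CPM against 64.1, 37.1 and 43.5 CPM (2.19 ± 0.36). Id3 was lower, at 18.2, 0 and 0 against 56.0, 30.7 and 43.5 CPM. Heat shock genes gave no call among 11, and MHC class I genes 2 higher and 1 lower of 12.

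Several effector genes known from other gamma delta T cells were at 0. Il17a, Il17f, Il22, Il4 and Areg had no UMI in gamma delta cells, nor did Klrk1, which encodes NKG2D, or Ccr7, a receptor for homing to lymph nodes, S1pr1, a receptor for exit from lymphoid organs, and Klf2, a transcription factor. These genes were rare in the other lymphocytes too, with 0 to 9 UMIs each in 1192 cells, and all of them but S1pr1 and Klf2 were also at 0 in Cd8b1 lymphocytes. Ifng had 5 UMIs, in 4 cells. At a median of 994 UMIs per cell, rare transcripts can be missed. No UMI in 489 cells allows a share of cells with a captured UMI of up to 0.613%, and says less of cells that express the gene.

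Transcripts of other cell types in gamma delta cells were counted as a whole. Epcam had a UMI in 58 of the 489 cells (11.9%) and in 2245 of 3518 non-lymphocytes (63.8%), and in thinned cells the shares were 4.57% ± 3.78 and 28.5% ± 7.08. At least 5 enterocyte UMIs were found in 18 gamma delta cells (3.68%), 140 other lymphocytes and 2820 non-lymphocytes. Summed over the cells of a mouse, goblet markers ran from 91.0 to 406 CPM, tuft markers from 105 to 646 CPM, Paneth markers from 45.5 to 2531 CPM, enteroendocrine markers from 6.55 to 4184 CPM, with mouse 2 highest, and erythroid markers from 0 to 588 CPM. B and plasma cell markers ran from 722 to 3739 CPM and myeloid markers from 258 to 561 CPM, with C1qc, Cd14 and Fcgr1 at 0. Mast cell markers ran from 60.7 to 146 CPM, with Cpa3, Mcpt2 and Ms4a2 at 0, and markers of stem and dividing cells from 138 to 228 CPM, with Olfm4 and Ascl2 at 0. The helper T cell list summed to 727 to 971 CPM, with Foxp3, Cd40lg and Il2ra at 0, and the list of NK and innate lymphoid cells to 561 to 879 CPM, with Ncr1, Eomes and Il22 at 0.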

How the data were processed

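Single cells of the jejunum were profiled on 44 plates from 4 mice. The deposited table held UMI counts per gene and well (whole numbers, 23379 genes, 16850 wells, 39137313 UMIs), which the authors made with STAR and zUMIs, counting by strand, before subtracting background from empty wells. The submitters' processing notes name bcl2fastq 2.15.0.4 and GRCm38. No background was subtracted here and no doublet caller was run. Per the study's methods, dead cells were excluded and single cells were gated as CD45 negative and Epcam positive, with CD24 used to enrich enteroendocrine cells, while tuft cells were gated on Epcam and CD24. Plates share 384 well barcodes, 340 of them on every plate.

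Members and gene lists were chosen with earlier results of these data known. UMIs were summed per mouse and group, for mice with at least 5 cells of the group, and tested with the quasi-likelihood test of edgeR 4.0.16 (TMM scaling, low counts filtered, limma 3.58.1, R 4.3.3), adjusted p 0.05. The alternatives were DESeq2 1.42.0, other scaling, filters, thinning and each mouse left out. The comparison with Trac lymphocytes, and the blocked fits with a lymphocyte sum of 5, without wells with transcripts of other cell types, or with total UMI scaling, were added after seeing the data. Same-numbered samples were taken to come from the same animal, although the plates of mouse 2 carry 2 ages. Their deviations from the group means correlated in mice 2, 3 and 4 at 0.467, 0.169 and 0.233 for other lymphocytes, 0.205, 0.213 and 0.114 for Cd8b1 lymphocytes, 0.378, 0.154 and 0.174 for Trac lymphocytes and 0.270, 0.112 and 0.120 for non-lymphocytes. Named genes were a set of T cell genes whatever their result, up to 4 genes of each list with the largest change among those called, and the 5 largest rises and falls changed the same way in every mouse, in the fits with and without the block; only some are printed. In data simulated without differences between mice, the fit without the block recovered 94.1% of 4-fold and 35.2% of 2-fold changes. This was for the comparison with other lymphocytes (3391 genes), and the blocked fit was not simulated.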

Additional observations from a re-analysis of the deposited data

How the results depend on the processing

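Against other lymphocytes, 3 genes were called. The count was 33 with the DESeq2 test, 22 with at least 2 Trdc UMIs, 289 with no filter on low counts, and 0 with a lymphocyte sum of at least 5, with wells thinned to 500 UMIs or without lymphocytes holding 5 or more enterocyte UMIs. Leaving out each mouse gave 0 to 7 (7 without mouse 2, 1 without mouse 3, 0 without mouse 4). With the mouse as a replicate block it was 239, and with the block 35 at a lymphocyte sum of at least 5, 316 scaled by total UMIs and 1 without wells with 5 or more UMIs of other cell types. Against Cd8b1 lymphocytes, 2 genes were called, 4 with at least 2 Trdc UMIs, 49 with no filter, 0 with DESeq2 and 0 to 2 when a mouse was left out (0 without mouse 3 or mouse 4). With the block 14 were called, 14 at a sum of at least 5, 0 scaled by total UMIs and 0 without wells with transcripts of other cell types. Against Trac lymphocytes, 0 genes were called, 1 with DESeq2, and with the block 12, 12 scaled by total UMIs and 1 without wells with transcripts of other cell types. Against non-lymphocytes, 3125 genes were called, 3583 with the block, 1507 with thinned wells, and 1848 to 3144 when a mouse was left out, the lowest without mouse 2. The share of lymphocytes that were gamma delta cells, 28.1%, moved to 15.9% with at least 2 Trdc UMIs. The causes were not tested beyond the fewer genes or cells that some settings leave. Among the genes named in the 4 comparisons, none changed sign between the main fit and an alternative where either called it. Sign changes between the blocked fit and the other alternatives were not counted. Scaling by total UMIs with the block turned the calls against other lymphocytes from 62 higher and 177 lower to 190 and 126.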
